A study of Homo sapiens with 24 samples.

Results

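Dihydrotestosterone (DHT) given together with enzalutamide (ENZ) was compared with the solvent DMSO in parental LNCaP cells, to ask how much of the chromatin response to androgen was measurable while its receptor was inhibited. The comparison takes the 3 peak lists of cells that received 10 nM DHT and 10 µM ENZ (DHT+ENZ) and the 3 lists of cells that received DMSO, 6 of the 24 lists of the series, chosen by their titles. LNCaP is an androgen-sensitive prostate cancer line, DHT is the most potent natural androgen, and ENZ binds the androgen receptor in place of the hormone. All LNCaP cells were first kept for 3 days in RPMI with 5% charcoal-stripped serum, which is poor in steroids and contained no drug for this line, and the agents were then present for 18 h. The other libraries are LNCaP with DHT alone or ENZ alone, and RES-A, an ENZ-resistant derivative of LNCaP, with the same 4 treatments; RES-A was kept in 10 µM ENZ during the 3 days before treatment, so its DMSO cells had met the drug. Each group had 3 libraries, described as biological triplicates of cell lines, so the p-values measure the spread between cultures of one line.

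The androgen receptor is a transcription factor that hormone binding brings into the nucleus and onto androgen response elements, paired 6-base half-sites in promoters and, more often, in distant enhancers. Receptor binding recruits coactivators and displaces nucleosomes, so that the DNA becomes accessible. FAIRE-seq measures this by fixing chromatin with formaldehyde and sequencing the DNA that a phenol extraction frees from nucleosomes, and a peak is a place where such DNA piled up. ENZ competes with DHT for the receptor and impairs its move to the nucleus and its binding to DNA.

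The promoters of KLK3 and KLK2 show what such an element looks like. KLK3 encodes prostate-specific antigen and KLK2 a related secreted protease, both classical targets of the receptor in luminal prostate cells, and both promoters are shown because the KLK2 start and the KLK3 enhancer carry peaks described further on. They are taken from RefSeq (GRCh38.p14, plus strand), run from 250 bases before the gene start to 50 after it, and lie at chr19:50854665-50854964 (KLK3) and chr19:50873189-50873488 (KLK2). Capitals mark the 15 bases that begin with the half-site AGAACA in KLK3 and the most similar 15 bases in KLK2.
KLK3: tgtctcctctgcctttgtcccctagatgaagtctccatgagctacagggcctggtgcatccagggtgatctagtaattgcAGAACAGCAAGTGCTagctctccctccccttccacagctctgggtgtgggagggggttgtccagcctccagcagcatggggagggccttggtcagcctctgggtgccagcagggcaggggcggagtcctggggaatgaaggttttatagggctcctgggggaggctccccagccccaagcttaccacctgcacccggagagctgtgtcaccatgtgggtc
KLK2: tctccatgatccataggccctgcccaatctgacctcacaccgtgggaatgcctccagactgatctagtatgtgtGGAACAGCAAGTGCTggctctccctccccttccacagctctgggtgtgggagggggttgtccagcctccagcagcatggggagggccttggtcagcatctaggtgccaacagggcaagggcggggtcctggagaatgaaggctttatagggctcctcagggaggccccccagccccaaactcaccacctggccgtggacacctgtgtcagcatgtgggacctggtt
The marked bases start at −170 from the KLK3 start and at −176 from the KLK2 start, and they differ by 1 substitution, A1G, counted from 1 at the first capital of KLK3. Of the 35116 RefSeq promoters of this length, 14.8% held AGAACA or its reverse complement TGTTCT, and 6 held the KLK3 element on the given strand with at most 1 mismatch. A match of letters is a description and not a measured binding site.

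Peak lists differ in depth, so each library was represented by its 50000 peaks with the highest −log10 p, its top-ranked peaks. The DHT+ENZ lists held 204053, 256014 and 198464 peaks and the DMSO lists 194720, 262245 and 129409. The difference of 24052 peaks was within the spread between libraries (219510 ± 31736 against 195458 ± 66421, SD, n = 3 each, exact permutation p = 0.6, adjusted 0.7 over 3 list measures), and it turned to −8972 without DMSO replicate 3. The background recovered from each list, a measure of relative depth, was 3.29, 5.71 and 4.75 reads per base with DHT+ENZ and 2.58, 4.84 and 1.95 with DMSO, and these ranges overlapped (exact permutation p = 0.3). LNCaP DHT replicate 1 and LNCaP ENZ replicate 1 were shallow, at 0.739 and 0.406 reads per base, and enter the values of those groups as their first library unless left out by name. Of 9 luminal markers, the starts of KLK2, HOXB13, KRT18 and CDH1 had a top-ranked peak within 2 kb in all 6 libraries, while the starts of KLK3 and EPCAM had none. Of 8 markers of other cell types, the starts of 5 had no top-ranked peak in any of the 6 libraries, while those of COL1A1 and ALB had one in all 6 and that of SYP in 5. The summed fold enrichment of these 8 markers was 22.1 to 28.4 with DHT+ENZ and 26.1 to 38.0 with DMSO, and that of the 9 luminal markers 50.8 to 56.9 and 50.9 to 67.2, so both sums reached higher with DMSO. The part of such differences in the results was not tested.

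Few accessible regions separated cells with the agents from cells with the solvent. Merging the top-ranked peaks of the 6 libraries by an overlap of at least 1 bp gave 73410 regions, of which 29981, or 40.8%, were called in all 6. Only 373 regions (0.508%) were top-ranked in all 3 DHT+ENZ libraries and in no DMSO library, and are called gained. A similar 368 (0.501%) were top-ranked in all 3 DMSO libraries and in no DHT+ENZ library, and are called lost. Both directions were similarly frequent among the partial patterns as well, with 17228 regions (23.5%) called in more DHT+ENZ libraries and 17405 (23.7%) in more DMSO libraries. In bulk chromatin, fewer cells with an open region and a less open region in every cell cannot be told apart.

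**Figure D1:**
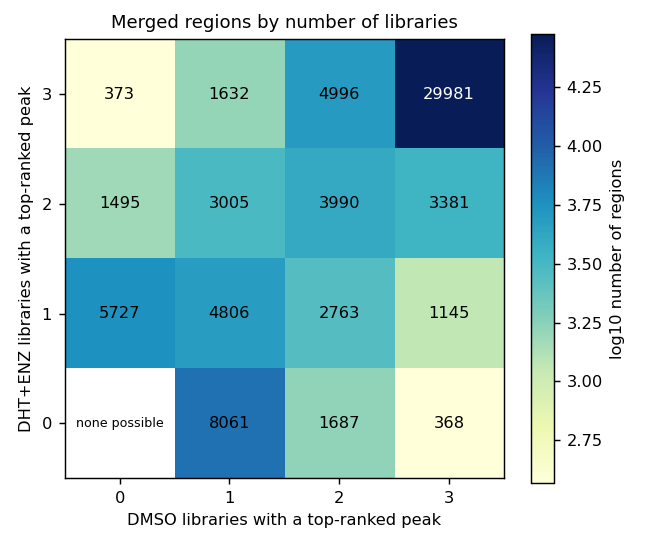
Number of merged regions by how many DHT+ENZ libraries (vertical axis) and how many DMSO libraries (horizontal axis) had a top-ranked peak there, with colour giving log10 of the number. The 29981 regions called in all 6 libraries fill the upper right corner, while the corners of full separation hold 373 and 368.

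No gained or lost region lacked a peak throughout the other group. Of the 373 gained regions, 352 had a lower-ranked peak in all 3 DMSO libraries and the other 21 in 2 of them, and all 368 lost regions had a lower-ranked peak in all 3 DHT+ENZ libraries. The gained regions had a median percentile of −log10 p of 62.9 with DMSO and 81.9 with DHT+ENZ, and the lost regions 81.2 and 70.4, where the choice of regions fixes the direction. Over all regions the medians were 83.0 with DMSO and 84.8 with DHT+ENZ. Percentiles are taken within lists of different length, so the sizes of these gaps are not compared. The gained and lost regions were slightly shorter than other regions, with medians of 408 bp (gained) and 378.5 bp (lost) against 431 bp over all regions. The same rule gave 1803 gained (2.14%) and 1450 lost regions (1.72%) for DHT alone, and 178 (0.206%) and 541 (0.626%) for ENZ alone. These comparisons share the DMSO libraries and each rests on 1 shallow library, so the counts stand side by side without a test.

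The gained region with the highest mean rank was chr3:47799108-47799586, whose fold enrichment over the expected pileup was 10.8, 6.70 and 7.43 with DHT+ENZ and 6.13, 7.17 and 5.35 with DMSO. The groups overlapped in fold there, and the region was top-ranked in all 12 RES-A libraries. The next, chr6:140323370-140323883, had folds of 6.999, 7.57 and 7.06 against 5.89, 6.06 and 4.55, with every DHT+ENZ library above every DMSO library. It was also top-ranked in all 3 LNCaP DHT libraries, in all 3 RES-A DHT libraries and in 0 of 3 RES-A DMSO libraries, and in 2 of 3 LNCaP ENZ libraries. The third, chr3:189842816-189843842, had folds of 8.20, 5.18 and 6.23 against 4.56, 5.29 and 4.38, with overlap between the groups. It was top-ranked in 3 of 3 RES-A DHT and 0 of 3 RES-A DMSO libraries, but also in 3 of 3 ENZ libraries of both LNCaP and RES-A.

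The highest-ranked lost regions were of similar size after normalization, with log2 differences of −0.67, −0.73 and −0.71 against 0.60, 0.60 and 0.63 for the 3 gained regions. Raw folds, given next, were higher with DMSO over all tested regions, with a median log2 difference of −0.19 before normalization. At chr2:36660488-36660928 the fold was 5.37, 5.80 and 4.43 with DHT+ENZ and 9.24, 9.57 and 9.59 with DMSO. At chr3:183979232-183979677 it was 5.36, 4.77 and 5.21 against 10.1, 9.94 and 9.48. At chr7:139749031-139749330 it was 5.54, 5.08 and 4.08 against 11.8, 8.62 and 7.52. The DMSO libraries were the higher ones without overlap at all 3. The last 2 were top-ranked in all 3 RES-A DMSO libraries and in at least 2 of 3 RES-A DHT libraries, whereas the first was top-ranked in none of the 12 RES-A libraries. In LNCaP, the region at chr3:183979232-183979677 was top-ranked in 3 of 3 DHT-alone and 3 of 3 ENZ-alone libraries. The chr2 region was top-ranked in 0 of either, and the chr7 region in 1 DHT-alone and 0 ENZ-alone libraries. All positions are those of hg19, and the exons and introns at these regions were not analysed here.

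Regions that responded to androgen in RES-A were read in the LNCaP libraries. In RES-A, whose libraries take no part in the LNCaP comparison, 4148 regions were top-ranked in 3 of 3 DHT libraries and 0 of 3 DMSO libraries (5.62% of 73799 merged regions, called androgen-opened), and 2517 had the reverse pattern (3.41%, androgen-closed). Of the androgen-opened regions, the LNCaP DHT+ENZ libraries called 51.3%, 44.3% and 45.2%, and the LNCaP DMSO libraries 40.3%, 40.7% and 35.9%. Every DHT+ENZ library lay above every DMSO library, by 7.94 percentage points on average (46.9% ± 3.79 against 39.0% ± 2.65, SD, n = 3 each). The exact two-sided permutation test gave p = 0.1, the smallest that 3 against 3 libraries allow, and 0.133 after adjustment over 4 region lists. LNCaP with DHT alone called 59.2%, 66.7% and 66.1% of them and LNCaP with ENZ alone 22.5%, 30.4% and 31.1%, the first of each being the shallow library. The order of the groups was thus ENZ, DMSO, DHT+ENZ and DHT, with no overlap between neighbours. In LNCaP itself, 398 of the 4148 regions (9.59%) were top-ranked in 3 of 3 DHT and 0 of 3 DMSO libraries.

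**Figure D2:**
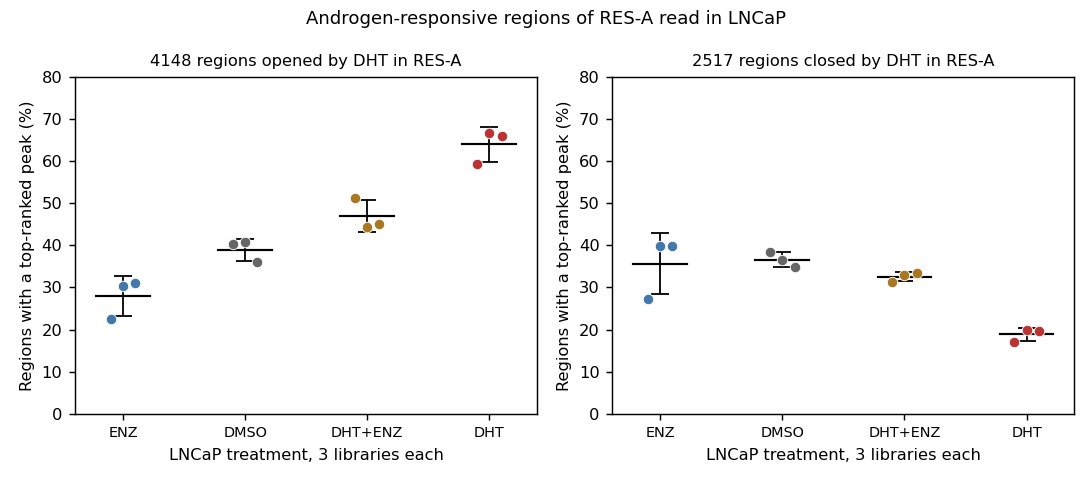
Percentage of the 4148 androgen-opened (left) and 2517 androgen-closed regions of RES-A that had a top-ranked peak in each LNCaP library, by treatment (points: libraries, bars: mean ± SD, n = 3). DHT+ENZ lies between DMSO and DHT in both panels, at 46.9% of the opened and 32.6% of the closed regions.

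Androgen-closed regions showed a smaller difference in the other direction. The DHT+ENZ libraries called 31.4%, 33.0% and 33.3% of them and the DMSO libraries 38.4%, 36.5% and 34.8%, a difference of −3.99 points (32.6% ± 1.04 against 36.6% ± 1.77, exact permutation p = 0.1, adjusted 0.133). The groups again did not overlap. DHT alone called 17.1%, 19.98% and 19.5% and ENZ alone 27.3%, 39.8% and 39.8%. Against the same DMSO libraries, DHT alone differed, with its shallow library included, by 25 points at the opened and −17.7 points at the closed regions. The DHT+ENZ difference was 31.8% of the first (23.1% to 36.9% when 1 of the 9 libraries was left out) and 22.5% of the second (18.4% to 26.1%). ENZ alone differed from DMSO by −10.97 and −0.953 points, so that at the opened regions the libraries with the drug alone lay below the solvent.

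Counted by region, 1014 of the 4148 androgen-opened regions (24.4%) were called in more DHT+ENZ than DMSO libraries and 314 (7.57%) in fewer, beside 23.5% and 23.7% of the 73410 regions of the 6 libraries. Those regions have a top-ranked peak in at least 1 of the 6 libraries, whereas the list includes regions with none, so the shares do not have the same base. Of the 4148, 2584 (62.3%) overlapped any of those regions, and the 1014 and the 314 all lie among these 2584. A further 976 were called in all 6 libraries and 1564 in none. Of the 2517 androgen-closed regions, 249 (9.89%) were called in more DHT+ENZ libraries and 458 (18.2%) in fewer. The 29557 regions called in all 6 RES-A DHT and DMSO libraries, stable by choice, gave 8.05% and 10.1%, and the DHT+ENZ and DMSO libraries called 81.3% to 81.5% and 82.3% to 83.0% of them. Adjustment for that last percentage moved the opened difference to 13.1 points and the closed difference to −0.606. That percentage did not overlap between the groups, so 6 libraries cannot separate it from the treatment. The adjusted values have no error estimate, and no conclusion is drawn from them. With all deposited peaks in place of the top-ranked, the opened difference was 10.4 points with overlapping groups (exact permutation p = 0.2) and the closed difference turned to 1.47 (exact permutation p = 1).

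Regions that RES-A cells opened when given DHT and ENZ together were also called more often in LNCaP DHT+ENZ. There were 1248 such regions (1.8% of 69258), of which the LNCaP DHT+ENZ libraries called 63.7% ± 4.03 and the DMSO libraries 53.8% ± 3.20 (SD, n = 3 each), a difference of 9.91 points without overlap (exact permutation p = 0.1, adjusted 0.133). With all deposited peaks it was 9.18 points with overlap (exact permutation p = 0.5). The 603 regions that RES-A closed (0.871%) differed by −4.04 points and overlapped between groups (exact permutation p = 0.2, adjusted 0.2).

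A second list came from LNCaP itself, from the DHT-alone and ENZ-alone libraries, which the comparison does not use. Of 2763 regions top-ranked in all 3 DHT and no ENZ libraries, the DHT+ENZ libraries called 52.8%, 36.8% and 39.1% and the DMSO libraries 29.4%, 28.6% and 22.4%. The difference was 16.1 points and the groups did not overlap (exact permutation p = 0.1, adjusted 0.2 over 4 lists). Replicate 1 had the highest value of the DHT+ENZ libraries at these regions, as it had at the androgen-opened regions of RES-A. Of 1084 regions with the opposite pattern, the DHT+ENZ libraries called 57.7%, 62.2% and 57.7% and the DMSO libraries 69.0%, 74.8% and 59.7%, a difference of −8.64 points with overlap (exact permutation p = 0.2). Without the shallow replicate 1 of DHT and ENZ the lists grew to 5294 and 4246 regions and the differences were 12.8 (exact permutation p = 0.1) and −6.38 points (exact permutation p = 0.3).

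The gained and lost regions were then read in the 18 libraries that had not chosen them. RES-A cells called the 373 gained regions in 41.6% ± 1.42 with DHT, 33.2% ± 1.88 with DHT+ENZ, 25.6% ± 1.52 with ENZ and 25.8% ± 2.58 with DMSO (SD, n = 3 each). DHT and DHT+ENZ lay above DMSO by 15.7 and 7.33 points without overlap (exact permutation p = 0.1 each, adjusted 0.114 over 8 comparisons), and ENZ did not separate from DMSO (−0.268 points, exact permutation p = 0.9). Over all 73410 regions these RES-A libraries called between 53.7% and 55.5%. In LNCaP, DHT alone called 46.4%, 66.2% and 68.6% of the gained regions and ENZ alone 18.5%, 36.7% and 41.3%, a difference of 28.2 points (exact permutation p = 0.1, adjusted 0.114) that was 28.4 without the shallow replicate 1 and 6.21 with all deposited peaks, where the groups overlapped (exact permutation p = 0.5).

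Lost regions were called less often with DHT than with DMSO, and here ENZ lay on the same side of DMSO as DHT. RES-A cells called the 368 lost regions in 57.4% ± 1.34 with DMSO, 51.1% ± 4.11 with ENZ, 48.5% ± 0.566 with DHT+ENZ and 44.7% ± 2.003 with DHT (SD, n = 3 each). All 3 treatments lay below DMSO without overlap, by −6.34, −8.97 and −12.7 points (exact permutation p = 0.1 each, adjusted 0.114). The ENZ difference was −4.56 with 25000 top-ranked peaks (exact permutation p = 0.4) and −1.51 with all deposited peaks (exact permutation p = 0.7). In LNCaP, DHT alone called 26.1%, 26.9% and 25% of them and ENZ alone 37.2%, 51.1% and 50.5%, a difference of −20.3 points (exact permutation p = 0.1, adjusted 0.114). It was −24.9 without replicate 1 and −11.4 with all deposited peaks (exact permutation p = 0.6). With all deposited peaks the RES-A differences at gained regions were −2.40 for DHT and −0.378 for DHT+ENZ, so their direction held for top-ranked peaks only.

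**Figure D3:**
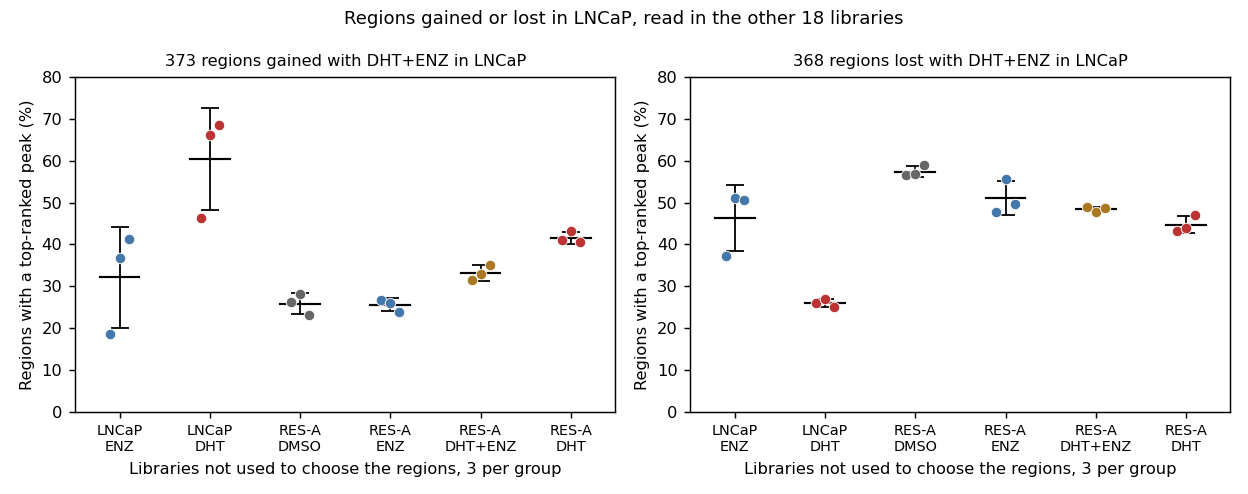
Percentage of the 373 gained (left) and 368 lost regions with a top-ranked peak in each of the 18 libraries that did not choose them (points: libraries, bars: mean ± SD, n = 3 per group). Gained regions were called more often with DHT than with DMSO or ENZ in RES-A (41.6% against 25.8% and 25.6%), and lost regions less often (44.7% against 57.4% and 51.1%).

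Overlap with the RES-A lists showed the same libraries from the other side. Of the 373 gained regions, 41 (10.99%) were androgen-opened in RES-A and 1 (0.268%) androgen-closed, where 3.52% and 1.83% of all 73410 regions were. Of the 368 lost regions, 22 (5.98%) were androgen-closed and 4 (1.09%) androgen-opened. The 41 regions were 0.988% of the RES-A androgen-opened list and the 22 were 0.874% of the closed list, so nearly all of both lists lay outside the fully separated regions.

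The size of the enrichment itself was tested with limma on log2 fold enrichment at the 96511 regions with a peak of any rank in all 6 libraries, 23.4% of 413028. No region passed an adjusted p of 0.05 in either direction. Before adjustment, 2619 regions (2.71%) had p under 0.05 with DHT+ENZ higher and 2841 (2.94%) with DHT+ENZ lower, and the smallest adjusted p was 0.874. Differences on the log2 scale ran from −0.91 to 0.93, 98.9% of them were within 0.5 of 0, and the median 95% interval reached 0.35 to each side. The groups did not overlap, with DHT+ENZ higher, at 5504 regions (5.7%) and, with DHT+ENZ lower, at 5211 (5.4%). Along the genome, 306 windows of 10 Mb were tested in the same way for their share of top-ranked peaks, with 0 past the threshold, 11 (3.59%) with an unadjusted p under 0.05 in either direction, and log2 differences from −0.39 to 0.29. Quantile normalization of the regions removed a median difference of −0.19 between the groups, and changes are relative to it.

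**Figure D4:**
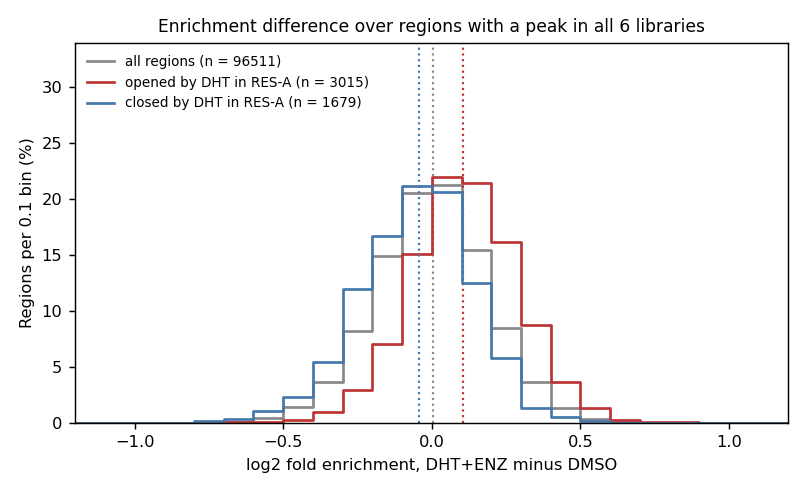
Distribution of the log2 difference in fold enrichment, DHT+ENZ minus DMSO, in bins of 0.1 for all 96511 tested regions and for the androgen-opened and androgen-closed regions of RES-A among them (dotted lines: medians). The opened regions are shifted to the right, with a median of 0.11, and the closed regions slightly to the left, with a median of −0.04.

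Within this narrow range the androgen-opened regions lay to one side. In the fit, 3015 regions represented 3012 of the 4148 androgen-opened regions (72.6%), those with a peak in every library. Their median log2 difference was 0.11 against 0.00 over all regions, and 73.6% were above 0 against 50.6%. An unadjusted p under 0.05 was reached by 225 (7.46%) with DHT+ENZ higher and by 13 (0.431%) with DHT+ENZ lower. For the androgen-closed regions, 1679 were tested, for 1677 of the 2517 (66.6%), with a median of −0.04, 40.9% above 0, and 13 (0.774%) higher and 89 (5.30%) lower before adjustment. In the 12-library fit of all LNCaP groups, which includes both shallow libraries, the medians of the androgen-opened regions were 0.25 for DHT, 0.10 for DHT+ENZ and −0.14 for ENZ, each against the same DMSO libraries. Those of the androgen-closed regions were −0.25, −0.04 and 0.00, and those of all regions −0.06, 0.00 and −0.04. DHT alone had 9 regions past the threshold there, 2 of them androgen-opened in RES-A, while ENZ alone had 1 and DHT+ENZ had 0.

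The regions with the smallest p show how large the single differences were. At chr12:13006426-13006792 the fold was 7.45, 6.12 and 5.21 with DHT+ENZ and 4.47, 4.46 and 3.72 with DMSO, a log2 difference of 0.75. At chr17:198098-198779 it was 7.11, 6.34 and 5.84 against 4.44, 5.65 and 3.51, a log2 difference of 0.74. This region was also gained, was androgen-opened in RES-A, and had folds of 7.86, 7.04 and 6.59 with DHT alone. The other 3 of the 5 highest, at chr10:56745467-56745884, chr1:43701433-43701789 and chr2:88031454-88031967, differed by 0.72, 0.76 and 0.85. Among the 5 lowest, chr3:38691111-38691367 had folds of 4.66, 3.43 and 3.82 against 10.1, 7.88 and 6.92, a log2 difference of −0.86. The region at chr7:8482473-8482725, which was also lost, had 3.49, 4.33 and 3.82 against 7.26, 8.05 and 7.11, a log2 difference of −0.76. The other 3, at chr2:121538170-121538441, chr7:154120395-154120772 and chr6:168564042-168564573, differed by −0.76, −0.77 and −0.72. The groups did not overlap in raw fold at any of the regions given here by library, and the limma adjusted p was 0.874 for all 10.

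No tested region at known androgen target genes passed the threshold. Tested regions have a peak in all 6 libraries by choice, so open chromatin in both groups is not a result here. The loci of 26 androgen-induced genes, taken as the gene with 25 kb on both sides at hg19 positions entered by hand, held 241 tested regions with a median log2 difference of 0.00. Before adjustment 11 (4.56%) were higher and 4 (1.66%) lower with DHT+ENZ, beside 2.71% and 2.94% of all regions. No locus held a gained or lost region. The 8 androgen-repressed loci had 1 higher and 2 lower of 54 regions, the 7 loci of luminal lineage genes 0 and 1 of 41, the 13 housekeeping loci 1 and 1 of 46, and the 6 loci of other cell types 0 and 2 of 26.

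At KLK3 none of 6 tested regions differed by more than 0.13 on the log2 scale. The region at −4033 bp from the gene start, in the place of its well-known upstream enhancer (chr19:51353866-51354410), had folds of 10.5, 10.1 and 8.44 with DHT+ENZ and 10.1, 11.6 and 9.58 with DMSO. The groups overlapped, and the log2 difference was 0.13 (limma adjusted p = 0.94). With DHT alone the folds were 8.39, 9.25 and 7.13, and with ENZ alone 4.75, in the shallow library, 10.1 and 10.5. These raw folds are not normalized between libraries. The median fold of all top-ranked peaks was 5.58, 7.20 and 5.72 with DHT alone and 8.10, 8.78 and 6.77 with DMSO. Within 2 kb of the KLK3 start the strongest peak had folds of 3.10, 3.89 and 3.60 with DHT+ENZ and 3.40 and 5.01 in 2 of the 3 DMSO libraries, and was top-ranked in none. KLK2 lies close by and 4 of its 5 tested regions are also counted at KLK3. The region at −211 bp of its start, whose promoter sequence is given above, had folds of 6.51, 7.18 and 6.196 against 7.87, 7.14 and 6.54, with overlap and a log2 difference of 0.09.

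TMPRSS2 encodes a membrane serine protease whose androgen-driven promoter is the partner in the common ERG fusion of prostate cancer. Of its 8 tested regions, 4 were above 0. The region with the smallest p, at −12575 bp (chr21:42892467-42892854), had folds of 7.96, 7.28 and 6.77 with DHT+ENZ and 7.51, 7.11 and 4.64 with DMSO. The raw folds overlapped while the normalized values did not, and the log2 difference was 0.43 ± 0.34 (reach of the 95% interval to each side, limma adjusted p = 0.874). It was top-ranked in 3 DHT+ENZ and 2 DMSO libraries. The neighbouring upstream region at −13669 bp (chr21:42893562-42893947) had folds of 7.82, 6.45 and 5.60 against 8.60, 8.715 and 5.48, with overlap. Its log2 difference was 0.02, and it was top-ranked in 3 DHT+ENZ and 3 DMSO libraries. The TMPRSS2 promoter region at −61 bp had folds of 7.36, 5.72 and 6.35 against 8.29, 7.99 and 8.19, where DMSO was higher in raw fold and the log2 difference after normalization was −0.14 (limma adjusted p = 0.945).

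FKBP5 encodes a cochaperone of steroid receptors with several enhancers inside the gene. Of its 12 tested regions 7 were above 0, from −0.43 to 0.37. The region at 97718 bp after the start (chr6:35598368-35598991), androgen-opened in RES-A, had folds of 8.10, 6.50 and 6.26 with DHT+ENZ and 6.90, 8.30 and 4.68 with DMSO. It was top-ranked in 3 DHT+ENZ, 2 DMSO, 3 DHT and 0 ENZ libraries, and its log2 difference was 0.30 ± 0.35 (95% interval, limma adjusted p = 0.874). The region with the smallest p, at 126953 bp (chr6:35569282-35569606), was weak and pointed the other way, with folds of 3.82, 2.43 and 2.54 against 5.69, 3.54 and 3.87.

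**Figure D5:**
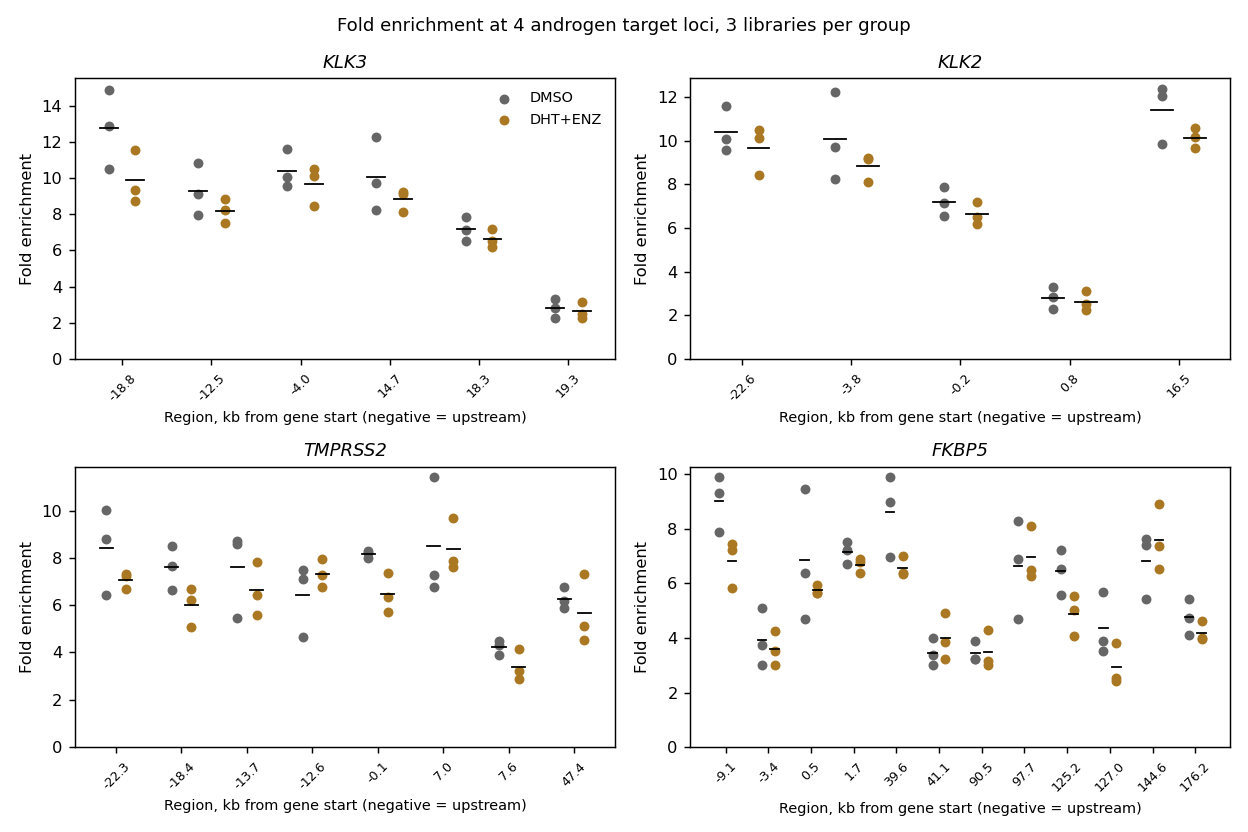
Fold enrichment (vertical axis, not normalized between libraries) at every tested region of the KLK3, KLK2, TMPRSS2 and FKBP5 loci, by distance of the region from the gene start in kb. Points are the 3 libraries of each group and lines their means. The groups overlap at the KLK3 enhancer (−4.0 kb), where the folds run from 8.44 to 10.5 with DHT+ENZ and from 9.58 to 11.6 with DMSO.

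A few further loci are named after their values were seen, as those with the smallest unadjusted p. At SGK1, a kinase induced by steroids, a region at 161081 bp after the start had folds of 11.6, 9.40 and 9.15 with DHT+ENZ and 9.22, 9.08 and 6.09 with DMSO (log2 difference 0.55). At ZBTB16, which encodes the transcription factor PLZF, a region at 20858 bp had folds of 5.09, 4.07 and 3.41 against 3.63, 2.88 and 2.82 (log2 difference 0.59). At the androgen-repressed gene CAMK2N1, an inhibitor of calmodulin-dependent kinase, a region at −7738 bp had folds of 3.03, 2.98 and 3.48 against 5.59, 4.97 and 5.08 (log2 difference −0.55). The limma adjusted p of all 3 was 0.874. The SGK1 region was top-ranked in all 6 libraries, the ZBTB16 region only in DHT+ENZ replicate 1, and the CAMK2N1 region in none. The housekeeping locus POLR2A, an RNA polymerase subunit, gave a difference of similar size at −392 bp, −0.46 with the same limma adjusted p.

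The induced loci held 18 androgen-opened regions of RES-A, spread over 10 genes. The DHT+ENZ libraries called 11, 10 and 9 of them, the DMSO libraries 9, 8 and 5, the DHT libraries 11, 12 and 10, and the ENZ libraries 5 each. Over the whole androgen-opened list the DHT+ENZ and DMSO libraries called 46.9% and 39.0%. The loci also held 6 androgen-closed regions, at TMPRSS2, ABCC4, TRPM8 and STEAP2, of which the DHT+ENZ libraries called 4, 4 and 3 and the DMSO libraries 4 each. Among the opened regions, DHT+ENZ replicate 3 and DMSO replicate 1 both stood at 9, so the groups met without crossing. At IGF1R, a growth factor receptor, 2 of 4 such regions were called in each DHT+ENZ library, in DMSO replicates 1 and 2 and in each DHT library, and 0, 1 and 1 in the ENZ libraries. At STEAP4, a metalloreductase, 2, 1 and 1 of 2 regions were called in the DHT libraries and 0 in every DHT+ENZ, DMSO and ENZ library.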

How the data were processed

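FAIRE-seq libraries were sequenced by the authors as 50-bp single-end reads, aligned to hg19 with BWA 0.7.8-r455, marked for duplicates with Picard 1.118 and searched for peaks with MACS2 2.1.0, each library on its own (versions per the submitters' processing notes and the study's methods). MACS2's options, and whether a control library was used, are not given in the sources used here. The deposited lists give for each peak the pileup at the summit (a signal, not scaled between libraries), the −log10 of the p-value and of the q-value, and the fold enrichment over the expected pileup, a ratio. The study's other filters were not repeated.

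Read totals were not used here, so relative depth was taken as the smallest recovered background, (pileup + 1) / fold − 1. Calls rest on chromosomes 1 to 22, X and Y and on the 50000 top-ranked peaks of each library, which are 19.1% to 38.8% of the 6 lists, because the lists differ in length. Peaks were merged into regions by an overlap of 1 bp. Regions with a peak in all 6 libraries were tested with limma 3.58.1 (R 4.3.3; lmFit and eBayes, log2 of the highest fold enrichment per library, quantile normalized, Benjamini-Hochberg threshold 0.05), a fit that leaves out regions with no peak in some library. Where 3 libraries were set against 3, the test was an exact permutation test, two-sided. Counts and percentages were computed with Python 3.11.15, numpy 2.4.6 and pandas 2.3.3. The limma fit and the region calls were tested on simulated data.

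Gene positions in hg19 were entered by hand for 63 genes. Of these, 54 had a span within 5% of their RefSeq length in GRCh38, and 60 had a peak within 2 kb of the start in at least 1 library and were used (not CDH2, CD3E and MYOD1). Named regions were the 5 per direction with the smallest p and the 3 gained and 3 lost with the highest mean percentile. Named genes were loci holding a gained, lost or tested-positive region, of which there were 0, and KLK3, KLK2, TMPRSS2 and FKBP5. The comparison, the gene lists and the tests were chosen with earlier results of these data known. The lists drawn from LNCaP DHT against ENZ, the stable-region adjustment, the RES-A lists free of any peak in the other group and the reading without the shallow libraries were added after the data had been seen. Some single loci are not reported here. Of the named genes, 3 of 4 were found in the RefSeq promoter table.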

Additional observations from a re-analysis of the deposited data

How the results depend on the processing

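No region of the enrichment fit passed the threshold under any alternative run. The number with an unadjusted p under 0.05 was 5460 and moved to 2544 with rank percentiles, 9523 with a floor for peaks missing in up to 3 libraries and 3328 with all 12 LNCaP libraries in the fit. The count of lost regions moved from 368 to 234 with 25000 top-ranked peaks, the count of gained regions from 373 to 1235 with all deposited peaks, and both to 0 where no peak of any rank was allowed in the other group. The number of merged regions moved as well. As shares, the lost regions went from 0.501% of 73410 to 0.587% of 39836, and the gained regions from 0.508% of 73410 to 0.299% of 413028. With all deposited peaks, gained regions in RES-A differed from DMSO by −2.40 points with DHT, −0.378 with DHT+ENZ and 1.73 with ENZ, and the androgen-closed regions in LNCaP by 1.47 points (1.11 for those closed by DHT+ENZ). Adjustment for the percentage of stable regions gave 13.1 points at androgen-opened, −0.606 at androgen-closed and 16.8 at regions opened by DHT+ENZ. That percentage did not overlap between the groups, so these adjusted values cannot be separated from the treatment. A list of 178 androgen-opened regions with no RES-A DMSO peak of any rank gave 9.18 points. Within 100 kb, 2 loci held a gained and 2 a lost region, against 0 within 25 kb. The 11 windows of 10 Mb with an unadjusted p under 0.05 became 6 with all deposited peaks. The causes of these shifts were not tested.

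Leaving out each of the 6 libraries gave differences of 5.77 to 9.24 points at androgen-opened and −4.85 to −3.08 at androgen-closed regions, 7.68 to 11.6 and −5.11 to −3.12 at the regions opened and closed by DHT+ENZ, and −8972 to 57446 peaks, negative only without DMSO replicate 3. Gained regions in RES-A differed by 8.02 to 14.6 points with DHT, 3.10 to 8.28 with DHT+ENZ and −1.94 to 1.47 with ENZ, the last above 0 without DHT+ENZ replicate 2 (0.417) or 3 (0.206) or without DMSO replicate 1 (1.47) or 2 (0.203), and in LNCaP by 15.04 to 27.5 points for DHT minus ENZ. Lost regions differed by −11.3 to −9.49, −7.59 to −5.82, −5.88 to −4.04 and −20.1 to −15.7. The counts ran from 788 to 1148 gained and 703 to 1043 lost regions, since 2 against 3 libraries separate more often, from 4112 to 7063 regions and 4 to 30 windows at an unadjusted p under 0.05, and from 0 to 6 loci with a gained and 0 to 4 with a lost region.

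Libraries with the same replicate number were treated as sharing only the number, because the correlations of their deviations from the group means, 0.118, 0.161 and 0.0572, were not all above 0.1. Each was above the highest with another number (0.000793, −0.0253 and 0.000793), a hint of pairing from the data and not from the design. With the number as a replicate block, 0 regions passed the threshold and 6668 had an unadjusted p under 0.05, 0 and 13 windows did, and no call changed. The exact sign-flip test of 3 pairs keeps the differences unchanged by construction, and its smallest p is 0.25. It therefore cannot show whether pairing matters. All 257 values of named regions and 26 list medians kept their direction and side of the threshold, in a tally that leaves out the fit of rank percentiles. In that fit, not normalized between libraries, the median difference was 3.30 percentile points over all regions. It was 7.80 at the androgen-opened and 2.28 at the androgen-closed regions, so the closed median was above 0 there and its direction turned. With a background of 1.95 to 5.71 reads per base among the 6 libraries, the precision of single folds differs between them, and its part in these values was not tested.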

Other observations

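By chromosome, some counts of gained and lost regions were uneven. Chromosome 2 held 39 gained and 33 lost regions, 10.5% and 8.97% of each list beside 6.96% of all regions. Chromosome 18 held 15 gained and 3 lost regions, 4.02% and 0.815% beside 2.489%. Chromosome 8 held 21 and 10, 5.63% and 2.72% beside 5.11%. These counts were picked out after they were seen and were not tested.

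Libraries of different treatment were about as alike as libraries of the same treatment. The base-pair Jaccard index of top-ranked peaks, shared over total bases, was 0.579 ± 0.0491 over the 9 pairs of a DHT+ENZ and a DMSO library. It was 0.607 ± 0.00778 over the 3 pairs within DHT+ENZ and 0.547 ± 0.0534 over the 3 within DMSO. The ranges of the first and the last overlapped, and DMSO replicate 3 was the shallowest of the 6.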
